A study of Homo sapiens with 6 samples.

Results

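Transcripts of 48 genes of DNA repair and of the DNA damage checkpoint were followed in H69 cells, a human cell line, after exposure to trichostatin A (TSA), an inhibitor of histone deacetylases. The 48 genes were taken by symbol from a table of 31814 genes and cover the main repair pathways together with the kinases and adaptors that signal damage. The vehicle group was H69 cells given the solvent DMSO, and the TSA group was H69 cells given 1 µM TSA for 24 h, with 3 libraries in each and no genetic change named in either. The tag of the treated samples reads HSA, but TSA is the agent named in the protocol and in the design text. The line grew in RPMI medium with serum, and the labels do not give its tissue. They do not say whether the 3 libraries were grown as separate cultures, and p-values therefore rest on a spread among libraries that may be technical alone.

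Breaks in both DNA strands are repaired by homologous recombination, which copies an intact sister chromatid in S and G2 phase, or by non-homologous end joining, which ligates ends at any time in the cell cycle. The Fanconi anaemia proteins unhook crosslinks between the strands, and excision pathways remove single damaged bases, bulky adducts or mispaired bases. The kinases ATM and ATR sense damage and, through CHK2 and CHK1, hold the cell cycle. Many recombination and Fanconi genes are transcribed under E2F control.

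Values are TPM, a level per transcript in which reads are scaled by gene length and then by the library total. Whole reads recovered from these values, which are lower bounds, came to 22533307 to 26148651 per library. All 8 neuroendocrine lung cancer markers reached 1 TPM in every vehicle library, as did 4 of 6 bile duct markers. The summed level of 5 fibroblast markers ran from 0.211 to 0.935 TPM in vehicle and from 5.30 to 7.30 TPM in TSA, that of 4 leukocyte markers from 4.97 to 6.43 and from 7.36 to 10.1 TPM, and that of 2 endothelial markers from 0.398 to 0.583 and from 0.125 to 0.275 TPM. The leukocyte markers did not move together. Mean levels in vehicle and TSA were 0.480 and 0.0432 TPM for PTPRC and 4.07 and 4.25 TPM for CD14. They were 1.14 and 3.88 TPM for CD68 and 0 and 0.179 TPM for CD3E. Of the endothelial markers VWF went from 0.495 to 0.124 TPM and CDH5 from 0.0262 to 0.0612 TPM. Most of the fibroblast sum was COL1A1, at means of 0.510 and 5.44 TPM. COL1A2, COL3A1 and PDGFRB, markers of fibroblasts, were listed at 0 in all vehicle libraries. The part of these cells in the results was not tested, and in bulk RNA fewer expressing cells and less RNA per cell cannot be told apart.

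Of the 48 genes, 47 passed the filter of 1 TPM in at least 3 libraries, and MGMT did not. By limma with Benjamini-Hochberg adjustment over 17596 genes, at a threshold of 0.05, 23 of the 47 fell, 3 rose and 21 did not pass the test. The 26 that passed are 55.3% of the 47, and over all tested genes 62.2% passed, 34.2% lower and 28.0% higher. The same shares apply to each count of this fit by pathway or list below. The median log2 fold change was −0.50 over the 47 genes and −0.095 over all tested genes. The genes that fell at least 2-fold numbered 11, namely FANCD2, FANCI, XRCC5, RBBP8, FANCC, LIG3, RAD51D, EXO1, NBN, XRCC4 and BRCA1, where 19.7% of all tested genes did. The 3 that rose were FANCE, LIG4 and ERCC1. Groups did not overlap for 24 genes that were lower and 4 that were higher in TSA, against 36.2% and 30.8% of all tested genes.

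**Figure D1:**
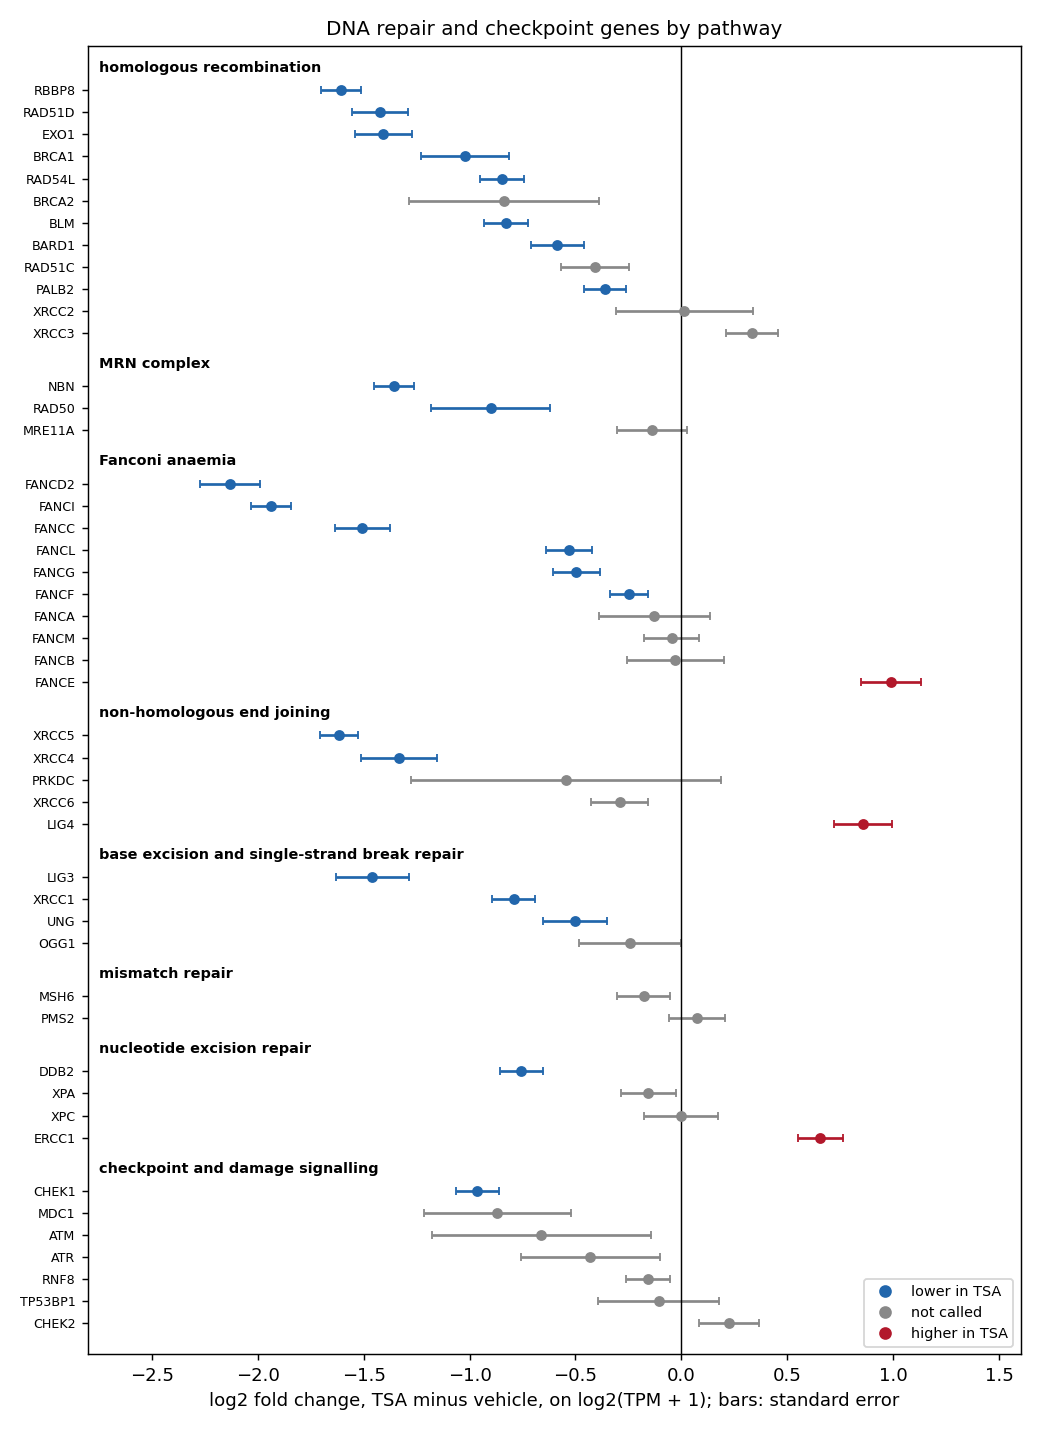
Log2 fold change of TSA over vehicle (x axis, on log2(TPM + 1)) for the 47 tested genes, by pathway, with bars for the standard error and colour for the call at an adjusted p of 0.05. Points lie from −2.13 for FANCD2 to 0.99 for FANCE, 23 are lower, 3 higher and 21 not called, and the bar of PRKDC is the widest.

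The promoters of 4 genes are shown to set genes that fell beside genes that rose in sequence. FANCD2 had the greatest fall, and FANCE and LIG4 had the greatest rises. BLM, which fell by less, was chosen because its promoter holds the most E2F-type motifs among the members whose promoter was found. Each run gives 250 bases before to 50 after the annotated start, on GRCh38.p14 from RefSeq, in the direction of transcription. Capitals mark E2F-type motifs (TTCCCGC or TTGGCGC), the CCAAT box and the CHR element TTTGAA, all searched on both strands with overlaps allowed.
FANCD2 (chr3:10026187-10026486, plus strand): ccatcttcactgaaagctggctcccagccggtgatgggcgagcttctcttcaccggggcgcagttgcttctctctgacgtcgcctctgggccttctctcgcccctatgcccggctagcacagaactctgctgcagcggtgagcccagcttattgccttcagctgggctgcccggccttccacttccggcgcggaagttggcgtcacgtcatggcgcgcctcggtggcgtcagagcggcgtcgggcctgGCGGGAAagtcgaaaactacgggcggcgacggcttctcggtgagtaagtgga
BLM (chr15:90717096-90717395, plus strand): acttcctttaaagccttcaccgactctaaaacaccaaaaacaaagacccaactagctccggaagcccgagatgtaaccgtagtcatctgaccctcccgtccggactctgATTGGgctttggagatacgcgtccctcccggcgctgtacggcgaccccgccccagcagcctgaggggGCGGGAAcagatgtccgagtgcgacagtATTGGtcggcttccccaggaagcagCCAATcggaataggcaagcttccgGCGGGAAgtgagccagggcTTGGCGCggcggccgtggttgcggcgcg
FANCE (chr6:35452088-35452387, plus strand): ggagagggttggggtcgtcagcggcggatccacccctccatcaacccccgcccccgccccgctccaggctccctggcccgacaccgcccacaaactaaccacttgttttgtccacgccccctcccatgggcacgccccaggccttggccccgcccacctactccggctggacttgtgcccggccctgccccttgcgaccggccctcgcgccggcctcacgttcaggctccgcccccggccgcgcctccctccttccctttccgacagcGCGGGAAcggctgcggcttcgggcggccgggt
LIG4 (chr13:108218300-108218599, minus strand): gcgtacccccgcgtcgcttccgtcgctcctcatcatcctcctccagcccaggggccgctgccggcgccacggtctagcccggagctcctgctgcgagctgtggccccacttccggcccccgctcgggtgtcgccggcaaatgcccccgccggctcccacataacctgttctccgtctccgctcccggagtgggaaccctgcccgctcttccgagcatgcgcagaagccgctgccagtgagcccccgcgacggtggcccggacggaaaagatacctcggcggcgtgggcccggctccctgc

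FANCD2 held 1 E2F-type motif and no CCAAT box, BLM held 3 and 3, FANCE held 1 and none, and LIG4 held neither. Promoters were found for 44 of the 48 genes, but not for FANCI, XRCC5, NBN and PRKDC. FANCI, XRCC5 and NBN, which fell at least 2-fold, are therefore missing from the split by call. An E2F-type motif occurred in 20 of the 44 (45.5%), against 9.33% of 27305 promoters of the same length. Among members it occurred in 10 of 20 that fell, in 8 of 20 that did not pass the test and in 1 of 3 that rose. Among all tested genes with a promoter it occurred in 16.1% of those lower, 15.0% of those not called and 13.0% of those higher. The CCAAT box was present in 22 of the 44 (50%) and in 35.7% of all promoters. By call it was in 9 of 20 members that fell, in 13 of 20 that did not pass the test and in 0 of 3 that rose, against 32.8%, 37.0% and 42.8% of tested genes that were lower, not called and higher. The CHR element was in 4 of the 44 (9.09%) and in 15.4% of all promoters. By call it was in 2 of 20, 2 of 20 and 0 of 3 members, against 12.6%, 7.94% and 6.76% of tested genes. The GC box GGGCGG, not capitalised above, was in 35 of the 44 (79.5%) and in 44.6% of all promoters. By call it was in 17 of 20, 16 of 20 and 1 of 3 members, against 65.6%, 70.2% and 76.5% of tested genes. A match describes these letters and was not tested as a binding site.

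The homologous recombination members were mostly lower in TSA. Of 12, 8 fell, 0 rose and 4 did not pass the test, with a median log2 fold change of −0.83. RBBP8 encodes CtIP, which starts the trimming of broken ends. It stood at 293, 325 and 323 TPM in vehicle libraries 1, 2 and 3 and at 94.97, 109 and 103 TPM in TSA libraries 1, 2 and 3. The 3 TSA values lay far below the vehicle values, with means of 314 ± 18.3 and 102 ± 7.08 TPM (SD, n = 3 each) and a log2 fold change of −1.61 ± 0.095 (SE, limma adjusted p 2.5e-05). EXO1, the nuclease that extends the trimming, was at 91.5, 107 and 93.0 TPM in vehicle and at 30.5, 41.3 and 36.8 TPM in TSA. Its groups did not overlap, and its log2 fold change was −1.41 ± 0.13 (SE, limma adjusted p 0.00015).

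BRCA1, a ubiquitin ligase subunit that promotes recombination, was at 69.6, 50.3 and 64.1 TPM in vehicle and at 39.4, 26.3 and 24.5 TPM in TSA. All TSA values lay below all vehicle values, and within TSA library 1 was the highest. Its log2 fold change was −1.02 ± 0.21 (SE, limma adjusted p 0.0048). BARD1, which pairs with BRCA1, fell from 16.7 ± 1.03 to 10.8 ± 1.29 TPM (log2 fold change −0.58, limma adjusted p 0.0064). With length and GC trends removed from each library its adjusted p by limma was 0.062. PALB2, which bridges BRCA1 and BRCA2, was at 32.4, 36.3 and 37.1 TPM and at 29.1, 26.5 and 26.0 TPM, a log2 fold change of −0.36 (limma adjusted p 0.017). It lost the call in 9 of 21 other settings, where the adjusted p rose above 0.05, to 0.15 at most. BRCA2, which acts in the strand exchange step, overlapped between groups, at 13.0, 5.18 and 12.2 TPM in vehicle and 9.22, 3.22 and 3.65 TPM in TSA (limma adjusted p 0.15).

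RAD51C, RAD51D, XRCC2 and XRCC3, which form complexes that assist strand exchange, differed from one another. RAD51D was at 15.2, 16.0 and 16.3 TPM in vehicle and at 5.77, 4.54 and 5.58 TPM in TSA, a log2 fold change of −1.42 ± 0.13 (SE, limma adjusted p 0.00014). A read-through gene that shares exons with it, RAD51L3-RFFL, also fell, by 1.06 on the log2 scale, and reads of their common exons cannot be told apart. RAD51C stood at 85.6, 111 and 96.2 TPM and at 59.4, 84.0 and 77.3 TPM (log2 fold change −0.41, limma adjusted p 0.061). XRCC2 overlapped, at 29.3 ± 7.62 and 30.9 ± 14.2 TPM. XRCC3 was the one member of the group with higher values in TSA without overlap, at 17.1, 16.4 and 14.7 TPM against 23.0, 18.3 and 20.3 TPM, and it missed the threshold (limma adjusted p 0.054). Of its annotated exonic bases 76.7% overlap KLC1 on the opposite strand, and whether reads were counted by strand is not stated in the labels.

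RAD54L, a motor protein of strand exchange, fell from 48.4 ± 4.36 to 26.4 ± 1.58 TPM (log2 fold change −0.85). LRRC41, whose exons overlap 25.1% of those of RAD54L on the opposite strand, fell by 1.93 on the log2 scale. BLM, the helicase mutated in Bloom syndrome, fell from 30.6 ± 1.503 to 16.8 ± 1.32 TPM (log2 fold change −0.83). The limma adjusted p was 0.00047 for RAD54L and 0.00049 for BLM.

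The 3 genes of the MRN complex, which tethers broken ends and activates ATM, moved by different amounts. NBN, its signalling subunit, was at 72.5, 73.1 and 76.1 TPM in vehicle and at 28.8, 30.5 and 25.7 TPM in TSA. The groups were far apart, with a log2 fold change of −1.36 ± 0.094 (SE, limma adjusted p 4.4e-05). RAD50, the ATPase subunit, was at 81.3, 53.1 and 78.9 TPM and at 55.6, 30.1 and 30.0 TPM, so that TSA library 1 lay above vehicle library 2. It passed the test with a log2 fold change of −0.90 (limma adjusted p 0.028), and the adjusted p ran from 0.0027 to 0.094 over the 21 other settings. In GENCODE 29, 79.7% of the exonic bases of RAD50 are shared with AC116366.3 on the same strand. That gene ID has 0 rows in the table analysed here, and how reads of the shared exons were assigned was not tested. MRE11A, the nuclease, overlapped at 63.2 ± 7.06 and 57.9 ± 12.2 TPM.

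Of 10 Fanconi anaemia genes 6 fell, 1 rose and 3 did not pass the test. FANCD2 and FANCI form the pair that is ubiquitylated at stalled forks, and both fell. FANCD2 was at 37.9, 28.7 and 30.7 TPM in vehicle and at 7.25, 6.11 and 6.44 TPM in TSA, a log2 fold change of −2.13 ± 0.14 (SE, limma adjusted p 3.8e-05). FANCI was at 119, 112 and 112 TPM and at 32.3, 27.5 and 27.7 TPM, a log2 fold change of −1.94 ± 0.095 (SE, limma adjusted p 1.4e-05). In both, all TSA values lay below all vehicle values.

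The core complex, the ubiquitin ligase that modifies that pair, was uneven. FANCC was at 47.2, 47.1 and 46.9 TPM in vehicle and at 19.2, 14.4 and 14.7 TPM in TSA, a log2 fold change of −1.51 ± 0.13 (SE, limma adjusted p 9.7e-05). FANCE, which binds FANCC and FANCD2, went the other way, from 20.3, 27.0 and 19.9 TPM to 40.9, 47.99 and 46.6 TPM. Its groups did not overlap, and it rose by a log2 fold change of 0.99 ± 0.14 (SE, limma adjusted p 0.00098). FANCL, the catalytic subunit, fell from 109 ± 12.03 to 75.1 ± 4.98 TPM and FANCG, a scaffold subunit, from 107 ± 12.9 to 75.2 ± 2.53 TPM (limma adjusted p 0.0050 and 0.0069).

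FANCF, an adaptor, was at 29.7, 32.6 and 31.2 TPM in vehicle and at 25.4, 27.5 and 25.4 TPM in TSA, with no overlap. Its log2 fold change of −0.25 lay at the threshold (limma adjusted p 0.0499). It lost the call in 15 of 21 other settings, where the adjusted p rose above 0.05, up to 0.66. FANCA overlapped at 27.1 ± 3.51 and 25.8 ± 10.2 TPM, FANCB at 22.5 ± 3.95 and 22.4 ± 6.65 TPM and the translocase gene FANCM at 13.8 ± 1.77 and 13.3 ± 0.492 TPM.

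**Figure D2:**
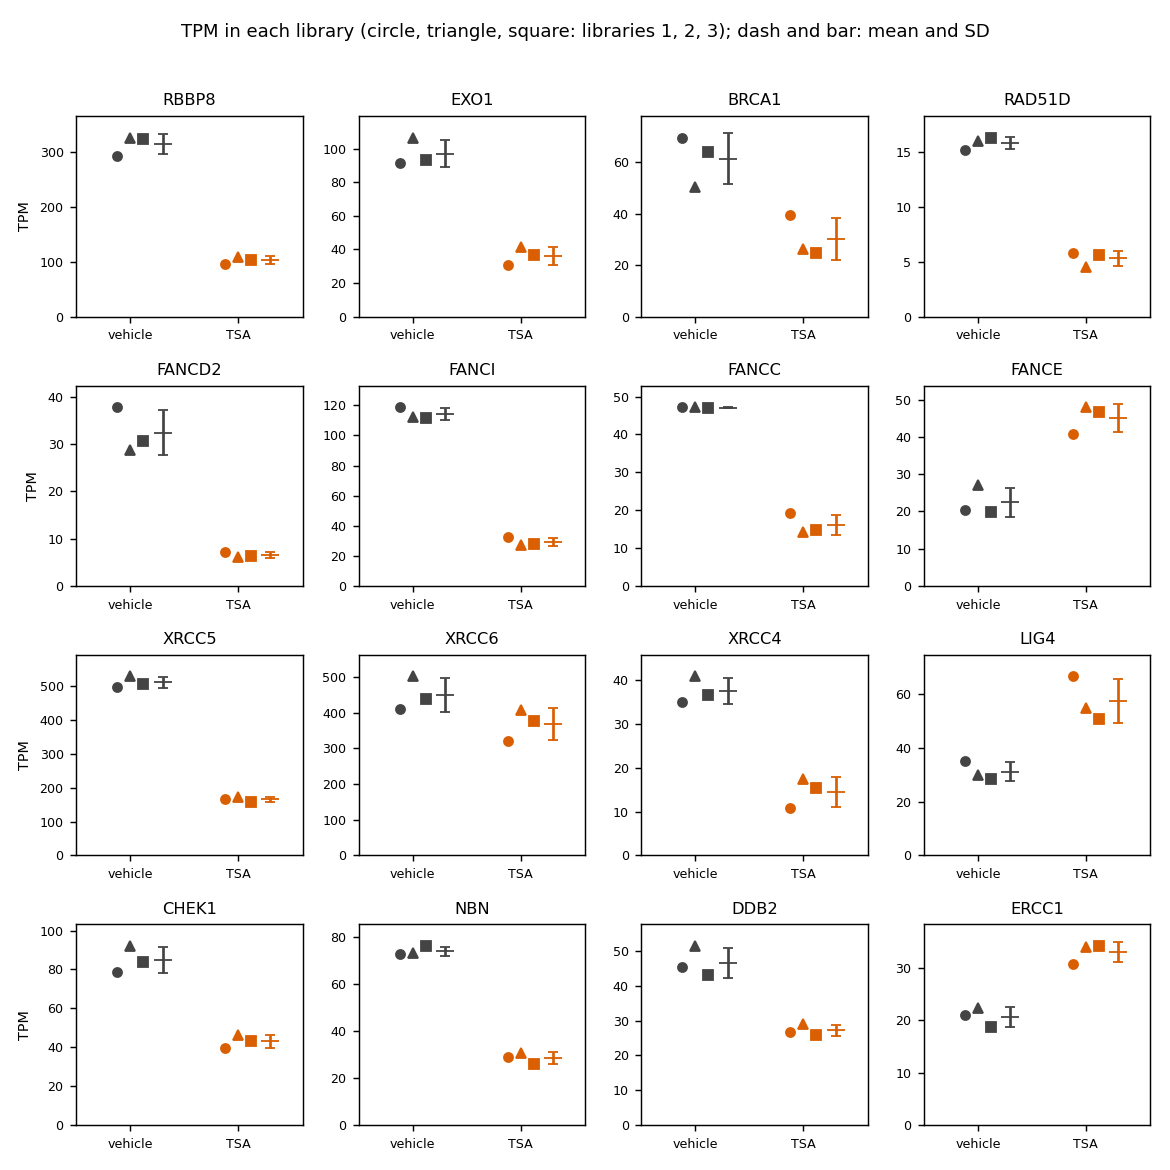
TPM (y axis, from 0, its own scale in each panel) of 16 genes in the 3 vehicle and 3 TSA libraries, with symbols for library number and a dash with bar for the mean and SD. FANCE, LIG4 and ERCC1 are higher in all TSA libraries, and the other 13 are lower in all of them, with XRCC6 closest at 410 TPM in its lowest vehicle and 407 TPM in its highest TSA library.

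End joining genes split between partners. The Ku ring that caps broken ends is made of Ku80, encoded by XRCC5, and Ku70, encoded by XRCC6. XRCC5 had the highest level of all members in vehicle, at 496, 528 and 507 TPM, and stood at 166, 172 and 159 TPM in TSA. Its log2 fold change was −1.62 ± 0.088 (SE, limma adjusted p 1.9e-05). XRCC6 was at 410, 501 and 438 TPM and at 320, 407 and 376 TPM, a log2 fold change of −0.29 that did not pass the test (limma adjusted p 0.10). GENCODE 29 lists 5 pseudogene copies named after XRCC6, so its value is uncertain. The same release lists 1 for FANCD2, 1 for RBBP8, 1 for MRE11A and 2 for UNG. The part of such copies in the values of these genes was not tested.

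XRCC4 and LIG4 encode the scaffold and the ligase that seal the ends. XRCC4 was at 35.0, 40.8 and 36.6 TPM in vehicle and at 10.8, 17.5 and 15.3 TPM in TSA, a log2 fold change of −1.33 ± 0.18 (SE, limma adjusted p 0.00074). LIG4 was at 35.2, 29.8 and 28.4 TPM and at 66.6, 55.0 and 50.6 TPM, a log2 fold change of 0.86 ± 0.14 (SE, limma adjusted p 0.0016). Neither gene overlapped between groups. PRKDC, the DNA-dependent protein kinase, overlapped widely, at 211, 62.1 and 141.6 TPM in vehicle and 249, 49.9 and 47.3 TPM in TSA.

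Since both genes of a pair share the library total, their ratio of TPM within a library does not depend on it. Such ratios were taken for 14 pairs whose products are known to act together, chosen after the values were seen. XRCC5 over XRCC6 was 1.21, 1.05 and 1.16 in vehicle and 0.520, 0.424 and 0.422 in TSA. XRCC5 was thus above XRCC6 in each vehicle library and below it in each TSA library. LIG4 over XRCC4 was 1.01, 0.731 and 0.775 in vehicle and 6.19, 3.15 and 3.31 in TSA. The longest GENCODE 29 transcripts of LIG4 and XRCC4 have 4180 and 1696 nt. Differences between libraries that go with length do not cancel in such a ratio, and their part was not tested. FANCE over FANCC was 0.431, 0.573 and 0.425 in vehicle and 2.13, 3.34 and 3.18 in TSA, so the order of these genes was turned.

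The smallest of the 14 shifts was that of FANCD2 over FANCI, from 0.283 ± 0.0319 to 0.226 ± 0.00535. NBN over MRE11A went from 1.18 ± 0.130 to 0.501 ± 0.0877, and RAD51D over XRCC2 from 0.566 ± 0.150 to 0.189 ± 0.0573. For each of these 6 ratios a two-sided exact permutation test gave p = 0.1, the smallest that 3 against 3 libraries allow, and 0.14 after Benjamini-Hochberg adjustment over the 14 pairs. The design therefore cannot bring such a ratio under 0.05. Ratios of BRCA1 over BARD1, BRCA2 over PALB2, ATR over ATRIP and ERCC1 over ERCC4 overlapped between groups (exact permutation p 0.2 each). Every other pair was without overlap, at an exact permutation p of 0.1.

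**Figure D3:**
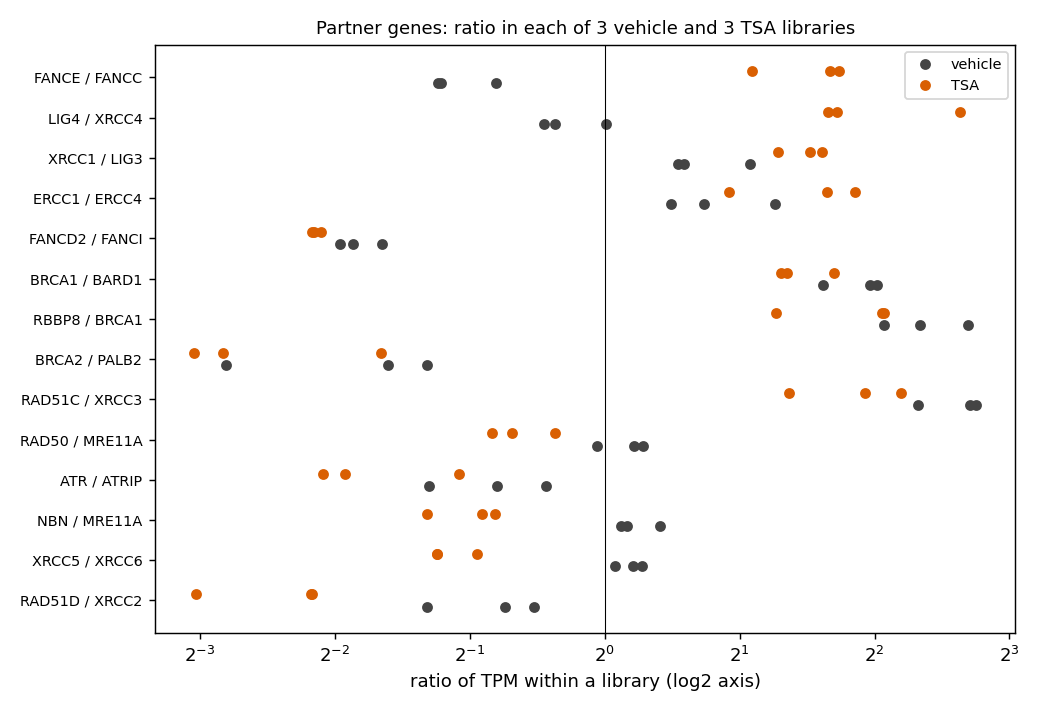
Ratio of TPM of 14 pairs of partner genes within each library (x axis, log2 scale), with 3 vehicle and 3 TSA points per pair. The points of FANCE over FANCC and of LIG4 over XRCC4 lie to the right in TSA (2.13 to 3.34 and 3.15 to 6.19), and those of XRCC5 over XRCC6 cross below 1.

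Of 4 genes of base excision and single-strand break repair 3 fell. LIG3, the ligase of this pathway, was at 30.9, 25.3 and 34.7 TPM in vehicle and at 12.7, 9.16 and 9.37 TPM in TSA, a log2 fold change of −1.46 ± 0.17 (SE, limma adjusted p 0.00040). Of its exonic bases 30.5% overlap RFFL and CCT6B on the opposite strand. RFFL also fell (log2 fold change −0.79, limma adjusted p 0.0011), and its part in the value of LIG3 was not tested. XRCC1, the scaffold that holds LIG3, fell from 50.2 ± 3.50 to 28.6 ± 2.24 TPM (log2 fold change −0.79, limma adjusted p 0.00057). UNG, which removes uracil, was at 189, 266 and 242 TPM and at 149, 182 and 158 TPM (log2 fold change −0.50, limma adjusted p 0.026). It lost the call in 6 of 21 other settings, where the adjusted p rose above 0.05. OGG1, which removes oxidised guanine, overlapped at 9.56 ± 1.88 and 8.07 ± 2.61 TPM.

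Neither mismatch repair member passed the test. MSH6, which recognises mispairs, was at 63.8 ± 5.85 and 56.4 ± 7.75 TPM, and PMS2, the nuclease subunit, at 17.2, 15.5 and 18.7 TPM in vehicle and at 20.8, 16.4 and 17.2 TPM in TSA. PMS2 has 10 pseudogenes of its name in GENCODE 29, which makes its value uncertain.

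Nucleotide excision repair genes moved in both directions. DDB2, which finds ultraviolet lesions, was at 45.5, 51.6 and 43.2 TPM in vehicle and at 26.7, 29.1 and 26.0 TPM in TSA, a log2 fold change of −0.76 ± 0.10 (SE, limma adjusted p 0.00075). ERCC1, the partner of the nuclease XPF that cuts 5′ of a lesion, was at 21.0, 22.3 and 18.7 TPM and at 30.8, 34.1 and 34.3 TPM, a log2 fold change of 0.66 ± 0.11 (SE, limma adjusted p 0.0017). On the opposite strand CD3EAP overlaps 28.6% of the exonic bases of ERCC1, and it rose from 21.0 ± 1.49 to 65.0 ± 1.21 TPM. Its part in the value of ERCC1 was not tested. The damage sensor XPC, at 24.6 ± 3.20 and 24.8 ± 5.46 TPM, and XPA, at 71.5 ± 9.80 and 63.8 ± 5.79 TPM, overlapped. Of the exonic bases of XPC 30.4% overlap genes on the opposite strand. Among these genes is LSM3, which fell (log2 fold change −0.84).

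MGMT removes alkyl groups from guanine in a single step. It was at 0.168, 0.0448 and 0 TPM in vehicle and at 0.619, 1.02 and 1.27 TPM in TSA, from 4, 1 and 0 recovered reads against 16, 27 and 32. The groups did not overlap, but the level stayed at about 1 TPM and MGMT was outside the test. The authors' deposited table gives it a log2 fold change of 3.78.

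Among 7 checkpoint and damage signalling genes 1 fell. CHEK1, which encodes the effector kinase CHK1 of the ATR branch, was at 78.6, 92.1 and 83.6 TPM in vehicle and at 39.7, 46.0 and 43.3 TPM in TSA, a log2 fold change of −0.96 ± 0.10 (SE, limma adjusted p 0.00023). CHEK2, which encodes CHK2 of the ATM branch, overlapped at 24.7, 27.4 and 21.6 TPM and 24.7, 32.8 and 29.4 TPM, and GENCODE 29 lists 4 pseudogenes of its name. RNF8, a ubiquitin ligase at breaks, was at 25.1 ± 1.14 and 22.5 ± 1.93 TPM.

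The other 4 genes of this group have long transcripts and varied with the library. ATM was at 14.6, 5.45 and 9.72 TPM in vehicle and at 12.5, 3.44 and 3.54 TPM in TSA, and ATR at 8.52, 5.25 and 8.43 TPM and 8.75, 3.69 and 4.02 TPM. In both, TSA library 1 lay above at least 2 vehicle libraries, and the other 2 TSA libraries were the lowest of all. MDC1, the adaptor that reads phosphorylated H2AX, was at 53.4, 31.4 and 54.0 TPM and 39.3, 16.9 and 21.1 TPM (log2 fold change −0.87, limma adjusted p 0.065). TP53BP1, which steers breaks toward end joining, was at 39.8 ± 9.37 and 37.8 ± 14.5 TPM. TUBGCP4, which fell (log2 fold change −0.75), overlaps 28.7% of the exonic bases of TP53BP1 on the opposite strand.

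Differences between libraries of the same group went with transcript length. Among 13 members whose longest GENCODE 29 transcript exceeds 6000 nt, the highest TSA library was a median of 1.85 times the lowest, up to 5.26 times for PRKDC. That median was 1.19 for 22 members of 3000 to 6000 nt and 1.21 for 12 shorter ones. Across the 47 genes the excess of TSA library 1 over the mean of the other 2 correlated with log length at r = 0.74 (rho 0.73), and that of vehicle library 1 over vehicle library 2 at r = 0.78 (rho 0.78). Over 16785 tested genes with a length the same values were −0.0083 (rho 0.28) and −0.058 (rho 0.25). These points share libraries, and genes are not replicates. The longest model of RAD51D, 9988 nt, puts it among the long members.

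Of the 13 long members 4 fell, 0 rose and 9 did not pass the test, where 34.2% of all tested genes fell and 28.0% rose. Without both replicate 1 libraries 26 members were lower and 3 higher, where 35.9% and 27.7% of all tested genes were. ATM (log2 fold change −0.89, limma adjusted p 0.036) and MDC1 (−1.09, limma adjusted p 0.019) were then among those past the threshold. With length and GC trends removed from each library 24 members were lower and 5 higher, against 35.8% and 30.5%, and MRE11A and FANCM were then higher, at 0.25 and 0.36 (limma adjusted p 0.047 and 0.019).

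**Figure D4:**
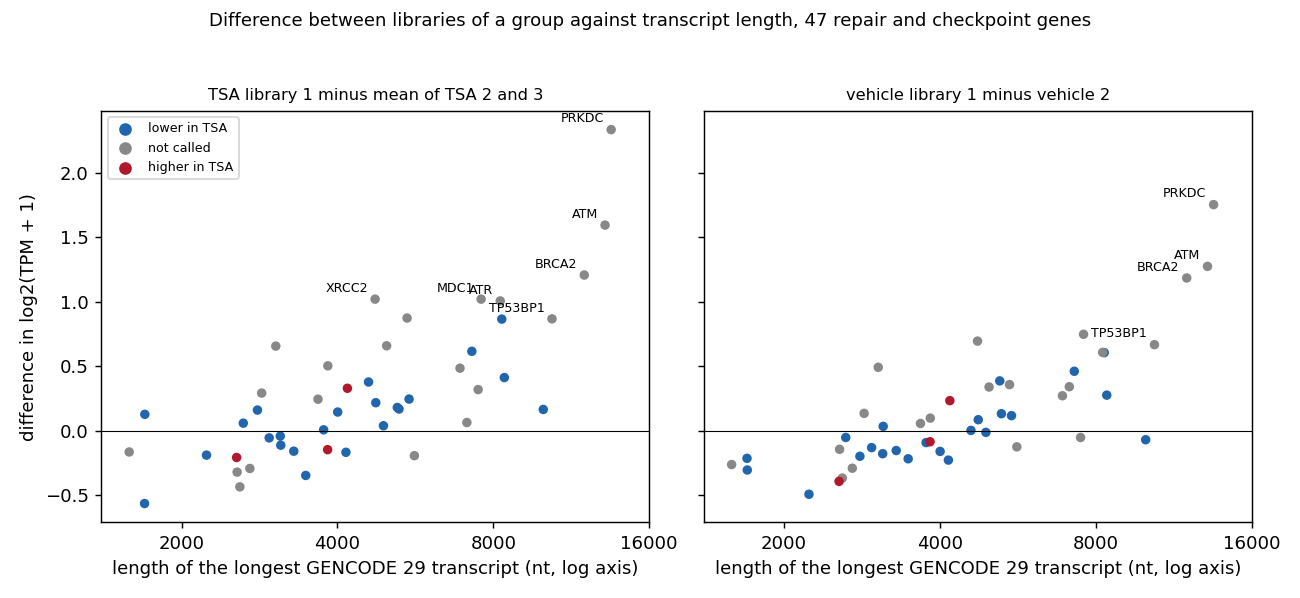
Difference in log2(TPM + 1) between libraries of one group (y axis) against the longest GENCODE 29 transcript (x axis, nt, log scale) for 47 genes, TSA on the left and vehicle on the right. PRKDC, ATM and BRCA2, with 13509, 13147 and 11986 nt, lie highest in both panels.

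Of 118 other genes of these pathways 115 were tested, and 52 fell, 24 rose and 39 did not pass the test, with a median log2 fold change of −0.36. Over all tested genes 34.2% fell and 28.0% rose, with a median of −0.095. Of 24 other checkpoint genes 15 fell and 3 rose, and of 5 other mismatch repair genes 4 fell and 0 rose. Of 16 other nucleotide excision repair genes 5 fell and 5 rose. Of 22 other tested homologous recombination genes 7 fell, 5 rose and 10 did not pass the test, with a median log2 fold change of −0.18. Of 10 other Fanconi anaemia genes 4 fell and 1 rose. The 4 with the greatest fall were RAD51AP1, a DNA binding protein of recombination, the glycosylase NEIL3, the nuclease and helicase DNA2 and REV3L, the catalytic subunit of a translesion polymerase. RAD51AP1 went from 168, 148 and 141 TPM to 32.9, 31.6 and 31.2 TPM. The log2 fold changes were −2.21, −2.02, −1.86 and −1.70 in that order, and the value of REV3L, another long transcript, ranged from 16.8 to 39.9 TPM within vehicle.

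The 4 with the greatest rise were NEIL2, RAD9A, SWI5 and CETN2. NEIL2, another base excision glycosylase, went from 7.60, 9.08 and 8.14 TPM to 30.8, 36.9 and 35.8 TPM. RAD9A, a subunit of the clamp that activates ATR, went from 15.7, 16.2 and 13.3 TPM to 67.0, 44.9 and 55.6 TPM, and CETN2, a subunit of the XPC complex, from 140 ± 17.8 to 463 ± 66.4 TPM. SWI5, a recombination factor, had a log2 fold change of 1.80.

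Genes of the cell cycle stood beside these values. All 20 genes of a G2 and mitosis list fell, with a median log2 fold change of −2.16, the greatest for MKI67 (−3.46) and CCNB2 (−2.83). Of 20 replication genes 12 fell and 1 rose, with a median of −0.71, led by TYMS (−2.45) and RRM1 (−2.11). The part of a lower share of cycling cells in the repair genes was not tested. Of 17 tested p53 target genes 7 rose and 5 fell, where 28.0% of all tested genes rose and 34.2% fell. BBC3 had a log2 fold change of 2.46. TNFRSF10B, one of the 7, was listed at 0 in 2 vehicle libraries and at 0.0871 TPM in the other, against 12.5 to 23.9 TPM in TSA, so it passed the filter through the TSA libraries alone and no fold is given.

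Several members lie head to head with another gene, with starts at most 1000 bases apart in GENCODE 29. There were 10 such pairs with a tested protein-coding neighbour, and both genes were called in 2, in the same direction. PALB2 and DCTN5, with starts 82 bases apart, fell by 0.36 and 0.53 on the log2 scale. LIG4 and ABHD13 have starts 11 bases apart, and while LIG4 rose, ABHD13 had mean levels of 41.5 TPM without TSA and 39.9 TPM with it and did not pass the test (limma adjusted p 0.64). PRKDC and MCM4 start 2 bases apart, and neither passed the test.

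Of the 48 genes, the authors' deposited table had 22 lower and 4 higher in TSA at an FDR under 0.05, against 19.5% and 21.8% of its 31814 genes. Those genes include many under the 1 TPM filter, which 17596 of them and 47 of the members passed. The shares are therefore not over genes of like level. Calls with the same sign in that table and in the limma fit numbered 23. BRCA2, MDC1 and MGMT were called in the authors' deposited table alone, and PALB2, FANCF and UNG by limma alone.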

How the data were processed

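Poly(A) RNA of 6 H69 libraries, 3 per group, was sequenced from stranded libraries on an Illumina NextSeq, per the labels' protocols. The authors' deposited table gives TPM per gene and library for 31814 genes, and their deposited comparison gives a log2 fold change, a log2 mean level, a likelihood ratio score and p-values with FDR. Named without roles, per the submitters' processing notes, were the build hg19 and the tools edgeR, featureCounts, Picard 1.127, STAR 2.5.3a and FastQC 0.11.2. Whether reads were counted by strand is not given in the sources read.

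From the deposited TPM values, log2(TPM + 1) was fitted with limma 3.58.1 in R 4.3.3 (lmFit, eBayes with trend) on the 17596 genes that reached 1 TPM in 3 libraries or more, with Benjamini-Hochberg adjustment and a threshold of 0.05. Fold changes on this scale understate changes of low genes. Whole reads were recovered from the TPM steps for 100% of the 27644 genes listed above 0 in 2 libraries or more (relative tolerance 1e-09). They came to 22533307 to 26148651 per library and served as a check of depth and for voom. Ratios were compared by exact permutation. Lengths, overlaps and neighbours came from GENCODE 29, whereas the files' gene IDs follow release 19, and promoters came from RefSeq on GRCh38.p14.

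All 48 members are described. Among other repair genes that were called without overlap, the 4 that rose most and the 4 that fell most are named, and the 2 with the greatest change of each cell cycle or p53 list. The members and lists were chosen with earlier results of these data known. Alternatives covered pseudocount, filter, scaling, variance model, length and GC, replicate block and libraries left out.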

Additional observations from a re-analysis of the deposited data

How the results depend on the processing

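Across 21 alternatives, 21 of the 26 called members kept their call in all, and none of the 26 changed sign. The other 5 lost it in at least 1: FANCF in 15, PALB2 in 9, RAD50 and UNG in 6 each and BARD1 in 1. Of 21 members not called, 11 passed the threshold in at least 1 alternative, 8 with the same sign and 3 (MRE11A, FANCM and TP53BP1) with the opposite sign. Members lower in TSA numbered 19 to 25 and members higher 3 when 1 library was left out. With length and GC trends removed 5 members were higher, and with the replicate block added to that fit 6 were higher and 25 lower, against 34.3% and 40.1% of all tested genes. The replicate block alone gave 4 higher and 28 lower, against 32.0% and 38.9% of all tested genes. The main fit did not take the numbers as pairs. Deviations of same-numbered libraries correlated at 0.63, 0.59 and −0.073. Libraries 1 and 2 correlated best with their own number, and library 3 did not. Vehicle 2 with TSA 1 gave −0.64, and vehicle 1 with TSA 2 gave −0.58. Any difference shared by same-numbered libraries stays in the error of the main fit, and its source was not tested.

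Median-of-ratios scaling moved the median of all tested genes from −0.095 to 0.024 and that of the members from −0.50 to −0.36. Signs turned for members that had not been called, and the cause was not tested. With median-of-ratios scaling the log2 fold change was 0.0050 for FANCA, 0.10 for FANCB, 0.083 for FANCM, 0.13 for XPC and 0.027 for TP53BP1. With quantile scaling it was 0.074 for FANCA, 0.16 for FANCB, 0.14 for FANCM, 0.19 for XPC, 0.065 for TP53BP1 and 0.029 for RNF8. With voom on recovered reads it was 0.10 for FANCB, 0.084 for FANCM, 0.13 for XPC and 0.023 for TP53BP1. Without mitochondrial genes FANCB was at 0.011 and XPC at 0.035, and with protein-coding genes alone at 0.0062 and 0.030. With length and GC trends removed, with or without the replicate block, values were 0.25 for MRE11A, 0.10 for FANCB, 0.36 for FANCM, 0.21 for MSH6, 0.28 for TP53BP1 and 0.11 for RNF8. Without both replicate 1 libraries XRCC2 was at −0.13, FANCM at 0.0042 and PMS2 at −0.022. Leaving out 1 library at a time, values ran from −0.42 to 0.087 for FANCA, −0.25 to 0.14 for FANCB, −0.15 to 0.026 for FANCM, −0.40 to 0.049 for TP53BP1, −0.33 to 0.25 for XRCC2, −0.17 to 0.094 for XPC and −0.025 to 0.14 for PMS2.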
